A study of Mus musculus with 6 samples.

Results

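Cfb, which encodes complement factor B, and Fgl2, which encodes fibrinogen-like protein 2, are 2 of the 149 genes in the authors' deposited table for reperfused mouse heart. They were taken by symbol because complement and coagulation are linked defence cascades. All libraries came from wild-type male C57BL/6 mice in which the left anterior descending artery of the heart was ligated for 45 min and reperfused for 24 h, and the sampled tissue was the injured region. The IR group (3 libraries) had this surgery alone. The TMAO+IR group (3 libraries) also drank 0.12% trimethylamine N-oxide (TMAO), a metabolite of dietary choline and carnitine, for 4 weeks before the surgery and during it. No group without surgery and none with TMAO alone was analysed here, so each value below is a level in injured tissue. Library depths, recovered from the deposited values, ran from 18370843 to 22442049 fragments. The 149 genes, and so Cfb and Fgl2, were selected on their FPKM difference between these same groups: all had a log2 change of 1 or more in size, and their adjusted p-values (FDR) reached 0.0487 at most. The group values of Cfb and Fgl2 are therefore given as a description, without a test.

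Factor B is the serine protease of the alternative complement pathway. It binds C3b, is cut by factor D, and its larger fragment is the catalytic subunit of the C3 convertase that amplifies complement deposition. The liver supplies most of the factor B in blood, while macrophages, endothelial cells and other cells make it locally under interferon and inflammatory cytokines. Fibrinogen-like protein 2 carries a fibrinogen-like domain. Its membrane form can cleave prothrombin to thrombin without the classical coagulation factors, and a secreted form restrains T cells and antigen-presenting cells through an inhibitory Fc receptor. In reperfused heart, complement deposition and small-vessel thrombosis are both known parts of the injury.

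Fgl2 (ENSMUSG00000039899) lies on the plus strand of chromosome 5 at 21372642 to 21378374 of GRCm38 and has 1 annotated transcript of 3788 bp in 2 exons (GENCODE M21). Cfb (ENSMUSG00000090231) is encoded on the minus strand of chromosome 17, from 34856374 to 34862518, and has 8 annotated transcripts, of 655 to 2751 bp, the longest with 18 exons. The RefSeq promoter table held Fgl2 (GRCm38.p6) and not Cfb. The Fgl2 start region is shown because 2 short motifs of factors that answer to cytokines and stress lie at its annotated start. The run covers chr5:21372423-21372671, plus strand, from 219 bases before the GENCODE start to the first 30 bases of exon 1. The 2 motif matches are in capitals.
Fgl2: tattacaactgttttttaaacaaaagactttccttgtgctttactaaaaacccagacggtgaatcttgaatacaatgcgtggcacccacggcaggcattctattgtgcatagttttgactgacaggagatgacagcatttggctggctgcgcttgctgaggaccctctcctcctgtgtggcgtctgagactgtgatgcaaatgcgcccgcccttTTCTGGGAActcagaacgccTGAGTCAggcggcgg
The first capital run, TTCTGGGAA, matches the STAT motif TTCNNNGAA and spans the GENCODE start, from base 21372637 to base 21372645. The second, TGAGTCA, matches the AP-1 motif TGANTCA at bases 21372657 to 21372663, inside exon 1. RefSeq places the start 31 bases further downstream, at 21372673, so both matches precede the RefSeq start. Both strands of the table's windows of 300 bases were searched, and these 2 matches do not overlap. The STAT letters occurred in 8.30% and the AP-1 letters in 7.81% of the 32851 windows. The IRF motif GAAANNGAA (8.56% of windows), the EGR motif GCGNGGGCG (5.55%) and the E-box CACGTG (7.15%) had no match in the Fgl2 window. A match is a run of letters only, and no binding was measured.

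Both genes were higher with TMAO. Levels are given as FPKM, the fragment count adjusted for transcript length and library depth. Fgl2 stood at 44.65, 90.56 and 45.91 FPKM in IR replicates 1, 2 and 3. It stood at 166.18, 157 and 96.7 FPKM in TMAO+IR replicates 1, 2 and 3. The groups did not overlap, but IR replicate 2 and TMAO+IR replicate 3 came within 1.07-fold of each other. The means were 60.4 ± 26.2 FPKM in IR and 140 ± 37.7 FPKM in TMAO+IR (SD, n = 3 per group), a ratio of 2.32. The log2 fold change fitted to the counts with edgeR was 1.21 ± 0.42 (SE). In the authors' deposited table the log2 fold change was 1.21, with an FDR of 0.0065.

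Cfb was far less abundant. Its levels were 0.84, 1.3 and 0.61 FPKM in IR replicates 1, 2 and 3, and 1.81, 2.35 and 2.07 FPKM in TMAO+IR replicates 1, 2 and 3. The groups did not overlap, and the lowest TMAO+IR library exceeded the highest IR library 1.39-fold. The means were 0.92 ± 0.35 FPKM in IR and 2.08 ± 0.27 FPKM in TMAO+IR (SD, n = 3 per group), a ratio of 2.27. The edgeR log2 fold change from counts was 1.15 ± 0.32 (SE), and the authors' deposited table gave 1.18 with an FDR of 0.0154. With 149 of 149 listed genes past the authors' limits (100%), 81.9% of them upward, and 94.6% with groups that did not overlap in FPKM (77.9% upward and not overlapping), the call of these 2 genes says nothing beyond their being listed. From each gene's own libraries, the SE of the mean difference in log2 counts scaled to library depth (CPM) was 0.42 for Fgl2 and 0.35 for Cfb. Scaling within the listed genes, which centres a list of mostly higher genes, left log2 fold changes of 0.18 for Fgl2 and 0.16 for Cfb. In bulk tissue, more cells that express a gene and more RNA per cell cannot be told apart.

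**Figure D1:**
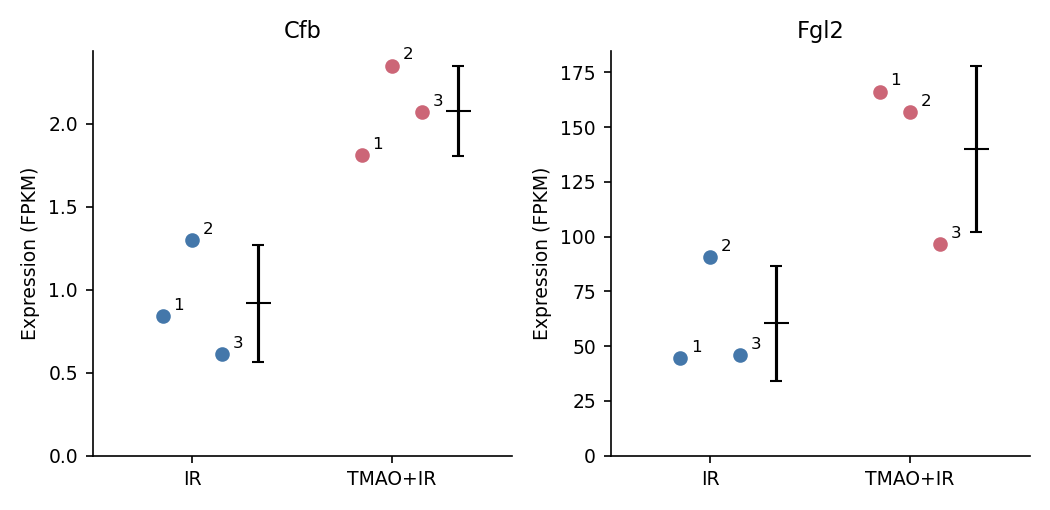
Expression of Cfb (left) and Fgl2 (right) in FPKM in each library, with the replicate number beside each point and the group mean ± SD as a bar beside the points (n = 3 per group). All 3 TMAO+IR libraries lie above all 3 IR libraries in both panels, narrowly for Fgl2, where IR replicate 2 is at 90.56 and TMAO+IR replicate 3 at 96.7 FPKM.

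Counting error weighed more in Cfb than in Fgl2, but both genes varied beyond it among the IR libraries. Fgl2 was counted with 3498 to 12807 fragments in each library, so counting error was small. In CPM, its closest libraries were IR replicate 2 at 343 (95% exact Poisson interval 335 to 351) and TMAO+IR replicate 3 at 366 (358 to 375), and these intervals did not overlap. Fgl2 nevertheless varied 2.03-fold among the IR libraries and 1.72-fold among the TMAO+IR libraries. Cfb rested on 48, 74 and 33 fragments in the IR libraries and on 91, 121 and 110 in those of TMAO+IR. The intervals of its closest libraries overlapped, with 3.37 CPM (2.64 to 4.22) in IR replicate 2 and 4.95 (3.99 to 6.08) in TMAO+IR replicate 1. Cfb varied 2.13-fold among the IR libraries but 1.3-fold among the TMAO+IR libraries. Its intervals in IR replicates 2 (2.64 to 4.22 CPM) and 3 (1.01 to 2.07 CPM) did not overlap, whereas those of the TMAO+IR libraries did. The intervals cover counting error only.

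The order of the libraries was shared in part. IR replicate 2 was the highest IR library for both genes, as for 89 of the 122 listed genes that were higher in TMAO+IR. TMAO+IR replicate 3 was the lowest TMAO+IR library for Fgl2, as for 98 of those 122 genes. Cfb had its lowest TMAO+IR value in replicate 1, a position shared by 13 of the 122. Its counts do not resolve this order. The 95% counting intervals in TMAO+IR replicates 1, 2 and 3 were 3.99 to 6.08, 4.66 to 6.71 and 4.34 to 6.37 CPM, and all overlapped. The part of these library differences in the levels of either gene was not tested.

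By FPKM, Fgl2 was more abundant than Cfb in every library. The ratio of Fgl2 FPKM to Cfb FPKM was 53.2, 69.7 and 75.3 in IR replicates 1, 2 and 3, and 91.8, 66.8 and 46.7 in TMAO+IR replicates 1, 2 and 3. The groups overlapped fully, and the mean ratios were 66.0 ± 11.5 in IR and 68.4 ± 22.6 in TMAO+IR (SD, n = 3 per group). Among the 149 listed genes, Fgl2 ranked 4 by mean FPKM in both groups, while Cfb ranked 108 in IR and 100 in TMAO+IR. Their edgeR log2 fold changes of 1.21 and 1.15 lay near the median of 1.21 over the 122 higher genes and of 1.16 over all 149. The distance between the nearest libraries of the groups was short for Fgl2. Of the 122 higher genes, 10 had a smaller ratio of lowest TMAO+IR to highest IR library than Fgl2, and 62 had a smaller one than Cfb (median 1.38).

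**Figure D2:**
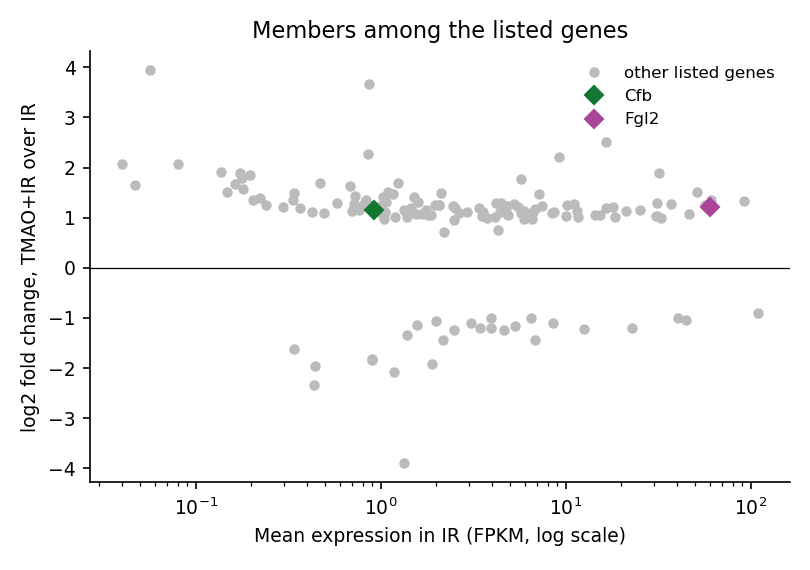
Mean FPKM in IR (log axis) against the edgeR log2 fold change of TMAO+IR over IR for 148 of the 149 listed genes (1 gene at 0 FPKM in every IR library cannot be drawn on the log axis). Fgl2 (60.4 FPKM) sits near the right edge and Cfb (0.92 FPKM) left of the middle, at almost equal fold changes of 1.21 and 1.15. The empty band around 0 is the result of the authors' limits.

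The neighbourhood of each gene bears on how its reads can be assigned. Cfb overlaps Gm20547, an annotated gene on the same strand (chromosome 17, 34856412 to 34882042) that runs from C2, the classical pathway paralogue of factor B, through Cfb. Of the 2825 exonic bases of Cfb, 2246 (79.5%) are also exonic in Gm20547. The division of reads between these genes therefore depends on the counting method, which the sources used here do not give. The FPKM level and rank of Cfb, and the ratio of Fgl2 to Cfb, may depend on that division too. C2 itself ends 85 bases before the Cfb start and shares none of its exonic bases. Fgl2 lies within Ccdc146, which is transcribed from the opposite strand, and shares no exonic base with it. The table of 149 genes does not list Gm20547, C2 or Ccdc146, and their levels were not analysed here.

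**Figure D3:**
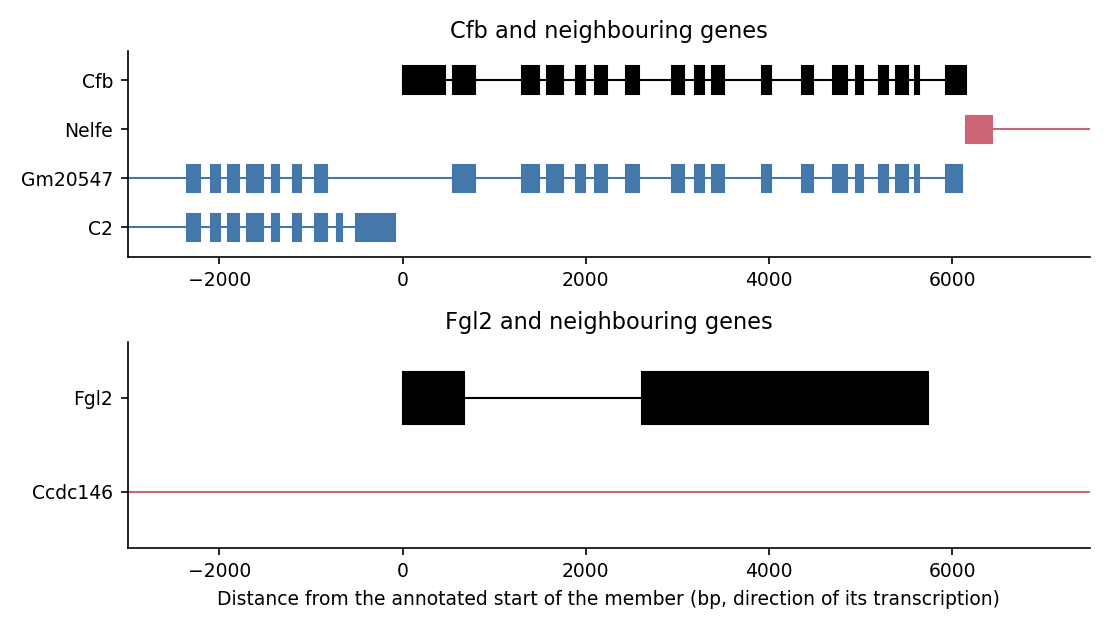
Exons (boxes) of the longest annotated transcript of Cfb, Fgl2 (black) and their neighbours, by distance in bp from the start of Cfb or Fgl2 in its direction of transcription, with neighbours on the same strand in blue and on the opposite strand in red. Exons of Gm20547 coincide with most Cfb exons (2246 of 2825 exonic bases over all transcripts), while no exon of Ccdc146 falls on Fgl2.

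The count and the FPKM of a gene can also be set against each other. Dividing a count by its FPKM and by the library depth gives an implied transcript length. For Fgl2 this length was 3784 to 3792 bp in the 6 libraries, against 3788 bp for its only annotated transcript. Fgl2 is among the 12 genes with a single transcript that set the depth, so this match is in part built in. For Cfb the implied length differed between libraries, from 2391 bp in TMAO+IR replicate 2 to 2763 bp in IR replicate 1, while rounding of the FPKM allows 2747 to 2779 bp in the latter. It was 2589 and 2411 bp in IR replicates 2 and 3, and 2737 and 2552 bp in TMAO+IR replicates 1 and 3, so the groups overlapped. The source of this variation was not tested. The Cfb ratio of group levels was 2.27 in FPKM and 2.21 in the fit to counts.

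By the gene lists used here, 4 listed genes belong to these cascades or to platelets. Of 54 complement genes in 5 lists (alternative, classical and lectin, and terminal pathways, receptors, regulators), Cfb was the only one among the 149. Of 63 coagulation, fibrinolysis and platelet genes in 4 lists, Fgl2, Thbs1 and Ppbp were listed, and these 3 were higher (median log2 fold change 1.21). Across all 117 genes of these lists, 4 were listed, with a median log2 fold change of 1.20. All 4 were higher and none lower, against 122 higher and 27 lower in the table. The 4 of 117 are 3.42% of these lists. Beside this, 1.17% were listed of the about 12721 genes that the deposited FDR values imply were tested. Cfb and Fgl2 were taken from the listed genes, and the lists were chosen with earlier results known. Their part of the 4 is therefore built in, and no excess is read from this share. How many of the 117 were tested is unknown. C3, Cfd and Cfp, which act with factor B, and F2, which encodes prothrombin, were not analysed here, nor were the remaining members of these lists. Thbs1 encodes thrombospondin 1, an adhesive glycoprotein released by activated platelets and made by stressed tissue. It stood at 70.64, 143.28 and 61.99 FPKM in IR replicates 1, 2 and 3, and at 245.87, 278.71 and 169.53 in TMAO+IR replicates 1, 2 and 3. Ppbp encodes a chemokine stored in platelet granules. It stood at 3.48, 4.16 and 2.55 FPKM in IR and at 9.09, 8.7 and 5.41 in TMAO+IR, in the same replicate order. As for Fgl2, replicate 2 was highest among the IR libraries and replicate 3 lowest among the TMAO+IR libraries in both genes.

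The annotation columns of the table add a pair of genes, named here after their values were seen. Its KEGG column places Cfb and Bdkrb2, and not Fgl2, Thbs1 or Ppbp, in the complement and coagulation cascades. The gene lists did not include Bdkrb2. Bdkrb2 encodes the bradykinin B2 receptor, which answers to the kinins released beside coagulation, and went from 0.33 ± 0.057 FPKM in IR to 0.86 ± 0.25 in TMAO+IR (SD, n = 3 per group). By the gene ontology columns, Cfb and Fgl2 share the terms extracellular region and peptidase activity, which 6 listed genes carry together (5 higher, 1 lower). The other genes of these 6 are the secreted metalloproteases Adamts1, Adamts4 and Mmp8 and the lower one, Hpn. Hpn encodes hepsin, a membrane serine protease able to activate coagulation factor VII. It stood at 1.53, 1.71 and 1.49 FPKM in IR replicates 1, 2 and 3, and at 0.53, 0.5 and 1.24 in TMAO+IR replicates 1, 2 and 3, so all of its TMAO+IR libraries were below its IR libraries, opposite to Cfb.

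Of 22 genes whose proteins carry a fibrinogen-like domain, Fgl2 and Tnc were listed (9.09%). Over all genes that the deposited FDR values imply were tested, 1.17% were listed. Fgl2 was taken from the listed genes, so its part is built in, and no excess is read from this share. Tnc encodes tenascin C, a matrix glycoprotein of injured tissue. It stood at 1.23, 2.32 and 1.21 FPKM in IR and at 3.94, 4.9 and 2.96 in TMAO+IR, in replicate order. Of 30 genes for cytokines, receptors and transcription factors known to act on Cfb or Fgl2, Il6 and Lif were listed (6.67%). How many genes of either list were tested is unknown. The 30 do not include other listed genes for transcription factors and signalling, such as Fos, Fosl1, Jun, Egr1 and Jak2. Il6 encodes interleukin 6, an inducer of acute-phase proteins, and stood at 23.86, 21.34 and 18.69 FPKM in IR and at 51.43, 49.61 and 42.98 in TMAO+IR. Its within-group spread was narrow, 1.28-fold in IR and 1.20-fold in TMAO+IR, and unlike for Cfb and Fgl2, IR replicate 2 was not the highest. Lif encodes a cytokine of the interleukin 6 family and went from 2.06 ± 1.14 to 4.85 ± 1.09 FPKM (SD, n = 3 per group).

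A few markers of cells that could carry these transcripts were in the table, where 81.9% of genes are higher by the same selection. The listed share was 12.5% of monocyte and macrophage, 7.69% of neutrophil and 8.33% of cardiomyocyte markers. It was 6.67% of both endothelial and platelet markers. Over all genes that the deposited FDR values imply were tested, 1.17% were listed. Each of these shares rests on 1 or 2 genes, and how many markers were tested is unknown. The monocyte and macrophage list had 2 of 16 genes listed, Ccr2 and Chil3, and their summed level ran from 1.06 to 1.83 FPKM in IR and from 2.77 to 6.11 in TMAO+IR. The endothelial list had 1 of 15, Ackr1, at 0.80 to 0.88 FPKM in IR and 1.83 to 2.58 in TMAO+IR. The neutrophil list had 1 of 13, Mmp8, at 3.53 to 6.75 FPKM in IR and 8.89 to 11.66 in TMAO+IR. The platelet list had 1 of 15, Ppbp, with the values above. Of the 12 cardiomyocyte markers, only Myh7 was listed, at 6.29 to 12.52 FPKM in IR and 27.54 to 56.46 in TMAO+IR. The level of this 1 gene does not measure the share of cardiomyocytes. No listed gene came from the lymphocyte (14 genes), fibroblast (10) or hepatocyte (6) lists. No listed marker was at 0 in any library, the unlisted markers were not analysed here, and the part of any cell type in the levels of Cfb or Fgl2 was not tested.

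**Figure D4:**
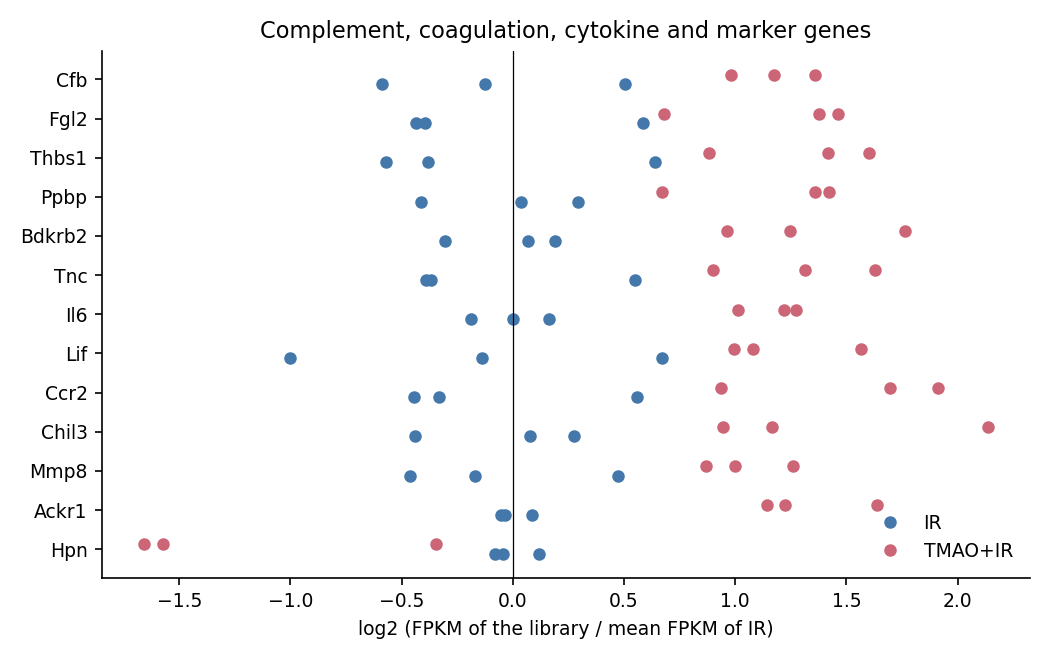
FPKM of each library relative to the mean FPKM of IR (log2 scale, blue points IR, red points TMAO+IR). The genes drawn are Cfb, Fgl2, Thbs1, Ppbp, Bdkrb2, Tnc, Il6, Lif, Ccr2, Chil3, Mmp8, Ackr1 and Hpn (Myh7 is not drawn). The groups are separate in each of these genes, most narrowly for Fgl2 (1.07-fold between the nearest libraries), and Hpn lies in the opposite direction.

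The genes with the most similar course over the 6 libraries differed between Cfb and Fgl2. Similarity was the root mean square difference of log2 counts scaled to library depth, each gene centred on its own mean, over the 140 other genes with a mean of at least 20 counts. All of them were listed for a difference between the groups, and the measure reflects the direction and size of that difference as well as the order of libraries within groups. For Cfb the closest were the predicted gene Gm14548 (0.12), Cd274, which encodes the T cell inhibitory ligand PD-L1 (0.13), the cytochrome P450 gene Cyp1b1 (0.13), the phospholipid flippase gene Atp8b1 (0.13) and the cystine transporter gene Slc7a11 (0.15). Cd274 CPM values were 9.53, 11.2 and 5.93 in IR and 21.4, 20.2 and 21.2 in TMAO+IR, which like Cfb had the lowest IR value in replicate 3 and were nearly level in TMAO+IR.
For Fgl2 the closest were Serpina3f, which encodes a serine protease inhibitor (0.14), Thbs1 (0.14), Tnc (0.14), the zinc finger gene Ikzf4 (0.15) and the neutrophil chemoattractant gene Cxcl5 (0.16). Thbs1 CPM values were 413, 838 and 362 in IR and 1439, 1630 and 991 in TMAO+IR, against 169, 343 and 174 and then 630, 595 and 366 for Fgl2. Cfb and Fgl2 were 0.33 apart, which placed Fgl2 at rank 63 for Cfb and Cfb at rank 52 for Fgl2, close to the medians of 0.37 and 0.38 over all 140 genes. With FPKM in place of counts, 4 of the 5 genes named for Cfb and 3 of the 5 named for Fgl2 were again among the closest 5. Slc7a11 moved from rank 5 to 33 for Cfb, and for Fgl2 Cxcl5 moved from rank 5 to 7 and Ikzf4 from rank 4 to 90. In TMAO+IR replicate 3 Ikzf4 had its highest FPKM (3.97, against 1.45 in IR replicate 2) but a CPM of 6.00, close to the 5.91 of IR replicate 2. These values describe 6 libraries and carry no test.

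**Figure D5:**
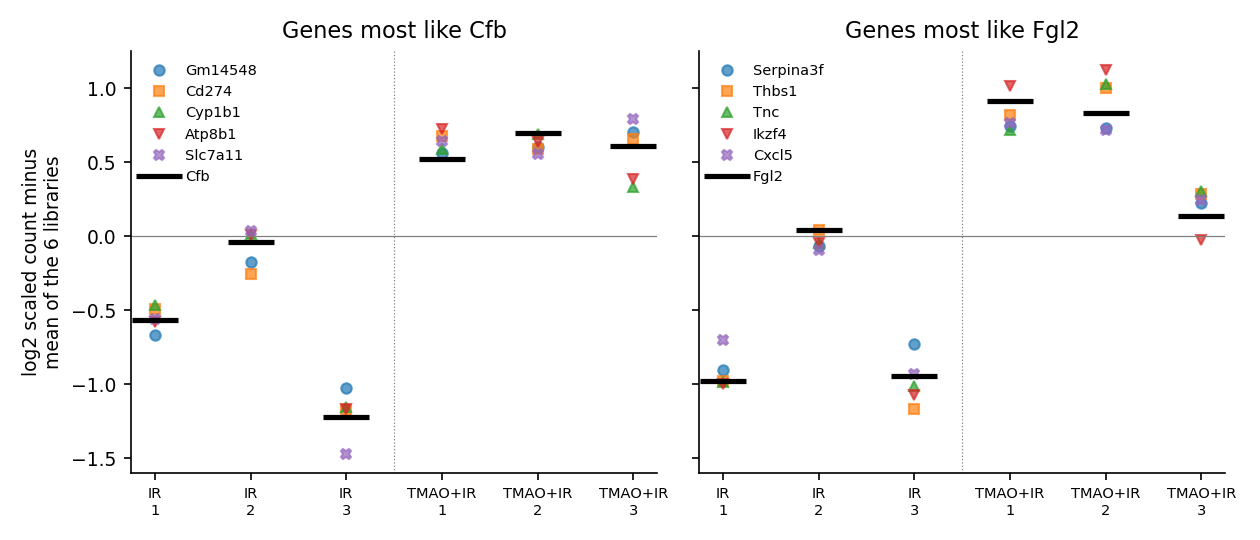
Log2 counts scaled to library depth, minus the mean of the 6 libraries, for Cfb (left, black bars) and Fgl2 (right, black bars) with the 5 listed genes closest to each. IR replicate 3 is the low point of the Cfb set, whereas in the Fgl2 set IR replicates 1 and 3 are both low and TMAO+IR replicate 3 falls close to IR replicate 2.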

How the data were processed

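Poly(A)-enriched RNA from the reperfused heart region was sequenced in 6 libraries, 3 IR and 3 TMAO+IR, per the labels' protocols. Groups and replicate numbers came from the sample titles, and columns prefixed T-IR were matched to TMAO+IR, the only group other than IR. The labels name no animals, so the spread between libraries may be technical. The build was GRCm38, and the tools were StringTie 1.3.1, HISAT2, Bowtie2 2.2.8 and fastp 0.18.0, with edgeR and DESeq2, all per the submitters' processing notes and without role or order.

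The authors deposited 1 table of 149 selected genes with raw read counts, FPKM values to 2 decimals, group means of FPKM, their log2 ratio, p-values and FDR. The sources used here do not name the test behind the authors' p-values. Their ratio of FDR to p implies about 12721 tested genes.

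Relative depths are medians of count divided by FPKM over 86 genes (1 FPKM or more in all libraries), with absolute size from 12 genes with a single GENCODE M21 transcript, to which all 149 identifiers matched. Log2 fold changes and SE came from edgeR 4.0.16 (R 4.3.3, quasi-likelihood, recovered depths, no filter, all 149 genes), checked on simulated data. With few, selected genes the SE leans on the spread common to them. Alternatives used DESeq2 1.42.0, limma 3.58.1 on log2(FPKM + 0.1) and log2(FPKM + 1), other scalings, a count filter, a replicate block and leaving out each library. The named genes are Cfb, Fgl2, listed genes of 18 gene lists, the 5 genes closest to each (0.5 added to counts before log2), and genes that overlap or adjoin them. Members and lists were chosen with earlier results of these data known.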

Additional observations from a re-analysis of the deposited data

How the results depend on the processing

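The log2 fold changes of 1.15 for Cfb and 1.21 for Fgl2 were positive under every alternative run, and DESeq2, limma on log2(FPKM + 0.1) and a mean of at least 50 counts moved them by less than 1 SD between replicates. With TMM scaling within the listed genes they were 0.16 and 0.18, and with the sum of the listed counts as library size 0.033 and 0.062, since both centre a list in which most genes are higher. Limma on log2(FPKM + 1) gave 0.69 for Cfb, whose level is near the added 1, and so 0.54 in place of 0.067 for the Fgl2 to Cfb log2 ratio in TMAO+IR minus IR. Leaving out 1 library gave 0.89 to 1.48 for Cfb, 1.04 to 1.63 for Fgl2 and -0.12 to 0.27 for the ratio. With the replicate number as a block the values were 1.20, 1.25 and 0.051. The labels name no pairs, so the numbers were not taken as pairs. Deviations of same-numbered libraries correlated at -0.32, 0.33 and -0.076 over 117 genes. Those of unlike numbers ran from -0.43 to 0.44, so these correlations cannot decide whether libraries were paired. Adjustment over the implied 12721 genes was an alternative chosen after seeing the data. It changes only adjusted p-values, so it is no check on the log2 fold changes. No call is read from it, since the genes were selected on this contrast. Of the 5 genes closest to Fgl2, 3 were kept with FPKM (Ikzf4 and Cxcl5 were not). Depth limits Cfb, with 33 to 121 counts per library, more than Fgl2.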
